A study of Homo sapiens with 6 samples.

Results

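The 10 genes described here encode the core of the MYC and MAX network: MYC, MYCN, MYCL, MAX, MXD1, MXD3, MXD4, MNT, MGA and MLX. They were chosen by name and not by a cutoff on level, though with earlier results of these data known. All 10 were found among the 17170 genes of the deposited table. The samples are labelled NCI-H69, a cell line of small cell lung cancer known for amplified MYCN. The study set 3 libraries with a non-targeting guide RNA (control) against 3 with a stable CRISPR/Cas9 knockout of the SCRMP coding sequence in MIR7-3HG. Cells of both genotypes share the line, the medium (RPMI-1640 with serum) and a batch label, and the labels do not say whether the edited and control cells were clones or pools. Columns named for the control libraries were found, whereas 0 of the 3 column names given for knockout libraries were. The values below are therefore levels of poly(A) RNA in control replicates 1, 2 and 3, as TPM (transcripts per 1000000, a unit that divides reads by transcript length so that genes can be compared), and no comparison of genotypes was made.

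Proteins of this network carry a basic helix-loop-helix leucine zipper and bind DNA in pairs at the E-box. MAX is the shared partner. MYC, MYCN and MYCL pair with MAX and activate genes of growth, ribosome production and metabolism. The MXD proteins and MNT pair with MAX at the same sites and recruit the SIN3 and histone deacetylase corepressor, and the large protein MGA joins MAX within a Polycomb complex, PRC1.6. MLX is a MAX-like hub for the glucose-sensing factors MLXIP (MondoA) and MLXIPL (ChREBP), and it can also pair with MXD1, MXD4 and MNT. In small cell lung cancer, a member of the MYC family is often amplified and MAX or MGA can be lost.

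The label was checked against marker genes. Of 10 measured neuroendocrine markers of small cell lung cancer, 1 was detected, meaning that no library was under 1 TPM, against 66.5% of all genes. This was NCAM1, an adhesion molecule, at 25.7 TPM ± 3.66 (SD, n = 3). The summed level of the 10 markers was 23.5 to 31.4 TPM, and SEZ6, the lowest, had 0.0133 TPM ± 0.0115. Of 12 mesenchymal markers 10 were detected, with the filament gene VIM at 4542 TPM ± 87.8, COL3A1 at 567.5 TPM ± 19.0 and CDH2, the lowest, at 0.0167 TPM ± 0.0153. Epithelial markers had 4 of 11 detected, from ESRP1 at 39.4 TPM ± 5.22 and CLDN7 at 16.1 TPM ± 2.42 to GRHL2, which was listed at 0. Leukocyte markers had 1 of 5 detected, CORO1A at 7.49 TPM ± 1.03, followed by PTPRC at 0.517 TPM ± 0.343. The libraries labelled NCI-H69 control thus went against a neuroendocrine type of small cell lung cancer in these markers, except for NCAM1. What part this has in the levels below was not tested. In bulk RNA, fewer cells of a type and less RNA per cell cannot be told apart.

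The activating members covered the whole range of the network, from its highest gene to its lowest. MYC (gene number 4609, chromosome 8, 127735434 to 127742951, GRCh38) had 319.9, 347.0 and 339.8 TPM in control replicates 1, 2 and 3, a mean of 335.6 ± 14.0. It was ranked 367 of all genes, and the 3 libraries lay within 1.08 times of each other. MYCL (gene number 4610, chromosome 1, 39895428 to 39901917) is amplified in some small cell lung cancers. It had 4.12, 2.64 and 1.62 TPM, a mean of 2.79 ± 1.26. Replicate 1 stood 2.54 times above replicate 3, and the coefficient of variation was 45.0%, above that of 98.7% of the 2229 genes within 2-fold of its level. The estimated reads were 146 in replicate 1, with a 95% exact Poisson interval of 123 to 172 for counting error only, and 61.0 in replicate 3, with an interval of 46.6 to 78.3. MYCN (gene number 4613, chromosome 2, 15940550 to 15947004), the gene for which the line is known, had 0.10, 0.37 and 0.14 TPM.

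MYCN rested on few reads. Replicate 2 had 9 and the others had 2 and 3, or 14 in all, for which the counting interval is 7.65 to 23.5. The mean of 0.203 TPM ± 0.146 fell to 0.120 without replicate 2, so that library decides its size. The intervals of the 3 libraries overlapped, and a difference between them was not detectable at this depth. MYCN was below 1 TPM in every library and was ranked 13230 of 17170, at percentile 22.9. MYC made up 98.7, 99.1 and 99.5% of the TPM of the 3 family members, and MYCN with MYCL came to 3.00 TPM ± 1.23. On the opposite strand, MYCN overlaps the antisense gene MYCNOS, and an antisense transcript also overlaps MYCL (GENCODE 29). The libraries keep the strand per the labels' protocols, but the sources used here do not say whether counting used it.

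**Figure D1:**
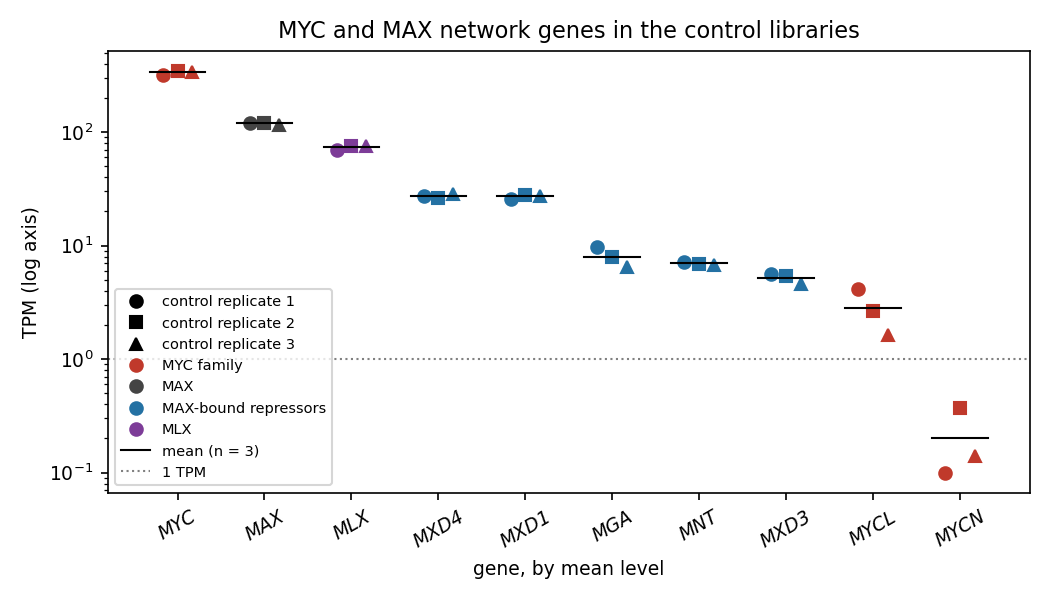
TPM on a log axis for each of the 10 genes, sorted by mean, with a point for each control replicate, a line at the mean and a dotted line at 1 TPM. MYC lies highest at 319.9 to 347.0 TPM and MYCN lowest at 0.10 to 0.37, the only member under the dotted line, and the points of MYCL spread from 1.62 to 4.12.

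The low level of MYCN was not shared by all genes near it. DDX1, an RNA helicase gene that is often co-amplified with MYCN, is the nearest measured gene toward lower coordinates, 309449 bp away, and had 161.5, 150.5 and 145.6 TPM (mean 152.5 ± 8.14). CYRIA, the nearest toward higher coordinates at 602455 bp, had 0.13, 0.20 and 0.12 TPM. The genes on either side of MYCN thus lay far apart, at percentiles 94.9 and 20.9 of all genes. Of 9 measured genes listed near MYCN on 2p24, 7 were detected, against 66.5% of all genes. The list median was 4.39 TPM ± 0.256. SMC6, a subunit of a DNA repair complex, followed DDX1 at 23.1 TPM ± 4.12, and RAD51AP2 was lowest at 0.117 TPM ± 0.106.

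Around MYCL, the adjacent gene TRIT1, which encodes a tRNA-modifying enzyme and lies 11917 bp away, had 53.2 TPM ± 1.56. MFSD2A on the other side, a lipid transporter gene, had 4.52 TPM ± 0.180. Their libraries spanned 52.2 to 55.0 TPM and 4.40 to 4.73 TPM, and relative to the level this was less than the 1.62 to 4.12 TPM of MYCL. Of 12 genes listed near MYCL on 1p34, 9 were detected, against 66.5% of all genes. The list median was 40.9 TPM ± 1.35. The lysosomal enzyme gene PPT1 was highest at 266.4 TPM ± 4.75, PPIE followed at 191.8 TPM ± 4.39, and OXCT2 was lowest at 0.0300 TPM ± 0.0520. Around MYC, the nearest measured genes were POU5F1B, 318210 bp away with 2.88 TPM ± 0.386, and GSDMC, 1962484 bp away with 0.0933 TPM ± 0.0950. Of the 9 measured genes of a list near MYC on 8q24, 8 were detected, against 66.5% of all genes. The list median was 26.3 TPM ± 2.30. NSMCE2, a SUMO ligase gene, was highest in that list at 1327 TPM ± 11.4. The sterol synthesis gene SQLE followed in that list at 329.1 TPM ± 10.9.

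MAX, the shared partner of the MYC, MXD, MNT and MGA proteins, was the second highest member. It had 121.5, 120.8 and 116.1 TPM (mean 119.5 ± 2.93; gene number 4149, chromosome 14, 65006101 to 65102695). The coefficient of variation was 2.45%, lower than that of most of the 1806 genes within 2-fold of its level, of which 18.2% varied less. The gene overlaps FNTB and CHURC1-FNTB on the opposite strand, which had 4.68 and 23.98 TPM. MYC exceeded MAX in each library, by 2.63, 2.87 and 2.93 times. The 8 members that pair with MAX summed to 399.6, 424.8 and 415.4 TPM, and MAX stood at 0.304, 0.284 and 0.280 of these sums. Its log2 ratio to the sum was -1.79 ± 0.06 (n = 3). Against the repressing partners alone, MAX was 1.61, 1.62 and 1.57 times their sum. MAX was thus below the summed partner transcripts in every library. The log2 ratio was -2.90 with estimated reads, where longer transcripts weigh more. It changed sign to 3.29 with the mean of log2(TPM + 1) over genes, which sets MAX against an average partner.

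The repressors that pair with MAX were all detected, against 66.5% of all genes. Their levels lay between those of MAX and MYCL. MXD4 (gene number 10608, chromosome 4, 2247432 to 2262109), a member of the MXD family linked to differentiation and exit from the cell cycle, had 27.3, 26.5 and 28.4 TPM, a mean of 27.4 ± 0.926. MXD1 (gene number 4084, chromosome 2, 69915109 to 69942945), the founding member of that family, had 25.9, 28.1 and 27.6 TPM, a mean of 27.2 ± 1.18. In GENCODE 29, MXD1 overlaps SNRNP27, a splicing factor gene at 68.7 TPM, on the same strand over 7888 bases. In the RefSeq positions these genes do not overlap and lie 9873 bp apart. Reads of a shared stretch can be assigned to either gene, and the annotation behind the counts is not stated. The value of MXD1 is therefore uncertain if that annotation holds the overlap. The libraries of MXD4 and MXD1 overlapped, and MXD4 was higher in 2 of 3. Together they made up 70.3, 73.0 and 75.7% of the repressor sum.

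The remaining repressors were lower. MGA (gene number 23269, chromosome 15, 41621224 to 41769940) had 9.64, 7.88 and 6.53 TPM, a mean of 8.02 ± 1.56. Replicate 1 was 1.48 times replicate 3, and 91.1% of the 3635 genes within 2-fold of the level of MGA varied less. The counting intervals of its estimated reads were 991 to 1119 in replicate 1 and 760 to 873 in replicate 3. MNT (gene number 4335, chromosome 17, 2384073 to 2401060), the most widely expressed MAX-bound repressor, had 7.16, 6.96 and 6.78 TPM, a mean of 6.97 ± 0.190. Its coefficient of variation was 2.73%, and 5.24% of the 3396 genes within 2-fold of it varied less.

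MXD3 (gene number 83463, chromosome 5, 177305499 to 177312752), the MXD member associated with S phase and proliferating cells, had 5.58, 5.35 and 4.60 TPM, a mean of 5.18 ± 0.512, from 73.3 to 77.4 estimated reads per library. It overlaps RAB24 on the same strand over 2284 bases and PRELID1 on the opposite strand over 3186 bases (GENCODE 29). In the RefSeq positions RAB24 lies 1780 bp from MXD3. RAB24 and PRELID1 had 47.0 and 310.1 TPM, and the value of MXD3 is uncertain for the same reason as that of MXD1. MXI1, the remaining MXD family gene and not among the 10, had 33.0, 32.7 and 32.1 TPM (mean 32.6 ± 0.442). It was above MXD4 and MXD1 in every library.

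**Figure D2:**
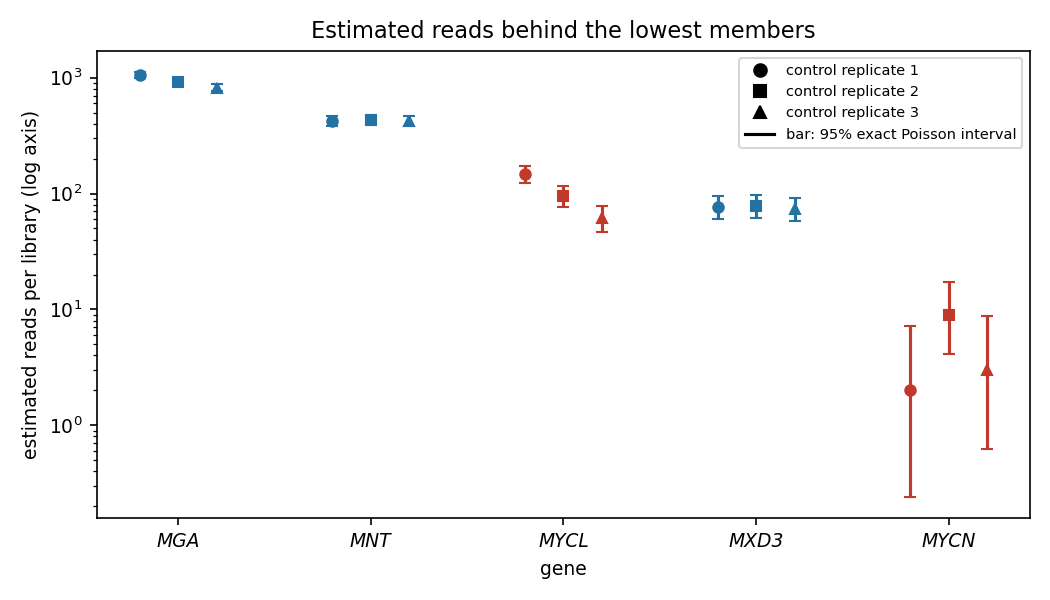
Estimated reads per library on a log axis for the 5 members with the lowest TPM, with bars for the 95% exact Poisson interval; symbols give the control replicate, red marks the MYC family and blue the repressors. The bars of replicates 1 and 3 are apart for MYCL and MGA, overlap for MNT and MXD3, and are widest for MYCN with 2 to 9 reads.

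Replicate 1 was the highest and replicate 3 the lowest library for 5 of the 10 members: MYCL, MAX, MNT, MGA and MXD3. All 5 are among the 9 detected members, and the same held for 42.0% of all detected genes. The median over all genes was 7.34, 6.71 and 6.44 TPM in replicates 1, 2 and 3. Replicate 1 was the lowest library for MYC, MLX, MXD1 and MYCN. The share of the spread of MYCL and MGA that follows this difference between libraries was not tested.

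In order of mean TPM the members ran MYC, MAX, MLX, MXD4, MXD1, MGA, MNT, MXD3, MYCL and MYCN. Of the 9 neighbouring pairs in that order, 7 did not overlap between libraries, and 2 did: MXD4 with MXD1, and MGA with MNT. The MGA and MNT means were 8.02 and 6.97 TPM, and MGA was the higher in replicates 1 and 2 and the lower in replicate 3. An exact two-sided sign-flip permutation test of 2 genes within the same 3 libraries cannot go below p = 0.25, and none was run on these pairs. In all, 9 of the 10 members were detected against 66.5% of all genes, and 5 reached a mean of 10 TPM against 44.1%. The member median was 17.4 TPM ± 0.320 and that of all genes 6.83 TPM ± 0.461. Estimated reads, which are not divided by length, kept 7 of the 9 pairs in order.

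Activators were set against MAX-bound repressors as sums within each library. MYC, MYCN and MYCL summed to 324.1, 350.0 and 341.6 TPM (mean 338.6 ± 13.2), and MXD1, MXD3, MXD4, MNT and MGA to 75.5, 74.8 and 73.8 TPM (mean 74.7 ± 0.818). The sums did not overlap, and the activator sum was 4.29, 4.68 and 4.63 times the repressor sum. The log2 ratio was 2.18 ± 0.07 (n = 3). MYC alone set this direction. Without MYC, the activators stood at 0.0559, 0.0402 and 0.0238 of the repressor sum, a log2 ratio of -4.73. Gene by gene, 2 of 3 activators lay below all 5 repressors, and the difference in mean log2(TPM + 1) between the groups was -0.18. MXI1 added to the repressors lowered the log2 ratio to 1.66.

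**Figure D3:**
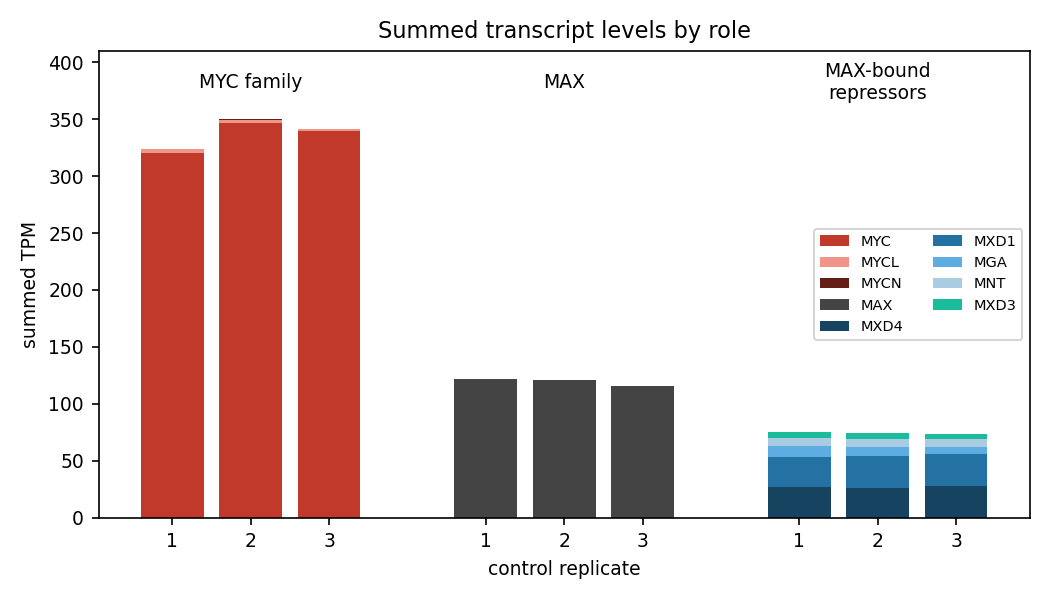
Summed TPM per control replicate for the MYC family, MAX and the MAX-bound repressors, with each gene as a segment of the bar. The MYC family bars reach 324.1 to 350.0 TPM and are almost wholly MYC, MAX reaches 116.1 to 121.5, and the repressor bars reach 73.8 to 75.5, of which MXD4 and MXD1 are the larger segments.

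MLX was the third highest member, with 69.3, 75.2 and 75.9 TPM (mean 73.5 ± 3.63; gene number 6945, chromosome 17, 42567100 to 42573203). It overlaps the end of PSMC3IP, on the opposite strand at 8.58 TPM, over 925 bases. The partners through which MLX senses glucose were far lower. MLXIP had 3.09, 3.26 and 2.83 TPM (mean 3.06 ± 0.217), so MLX was 22.4, 23.1 and 26.8 times its level. MLXIPL had 0.43, 0.39 and 0.28 TPM from 11.0 to 14.6 reads per library, below 1 TPM in all 3. Of 8 genes that MLXIP or MLXIPL with MLX are known to activate, 7 were detected, against 66.5% of all genes. The list median was 8.78 TPM ± 0.273. The hexokinase gene HK2 (54.8 TPM ± 6.95) and KLF10 (46.3 TPM ± 3.94) were highest. TXNIP, the best known target and a brake on glucose uptake, had 9.33, 9.79 and 9.06 TPM, and the liver pyruvate kinase gene PKLR was lowest at 0.0200 TPM ± 0.0346.

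The E-box that these pairs prefer reads CACGTG, the same on both strands, and it is a case of the wider E-box CANNTG. It was searched in RefSeq windows (GRCh38.p14) from 250 bases before to 50 bases after annotated starts. Windows were found for 9 members, MYC having no entry, and 3 of their 12 windows held the motif, against 7.26% of 35116 windows of the same length over all genes. The 3 are shown, 5′ to 3′ on the gene's strand with the motif in capitals, because they are the members whose own start regions carry the letters that the network binds. They belong to repressors and to MLX.
MXD4, chr4:2262330-2262359, minus strand: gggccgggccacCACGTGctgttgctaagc
MNT, chr17:2401236-2401265, minus strand: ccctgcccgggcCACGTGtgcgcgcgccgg
MLX, chr17:42567038-42567067, plus strand: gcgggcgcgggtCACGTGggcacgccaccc
The motif begins 238, 193 and 50 bases before the annotated start of MXD4, MNT and MLX. These genes had 27.4, 6.97 and 73.5 TPM, and the windows of MAX, MXD1, MXD3, MGA, MYCL and MYCN did not hold these letters. A match describes the sequence only, since no binding was measured.

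Other factors of the same protein class, which can bind E-boxes without MAX or MLX, were examined with MXI1, MLXIP and MLXIPL as a list of 12. Of these 10 were detected, against 66.5% of all genes. The list median was 23.5 TPM ± 0.908. USF2, a broadly expressed E-box activator, was highest with 110.2, 111.0 and 115.4 TPM, close to MAX, and its partner USF1 had 34.7, 34.2 and 35.5 TPM. The lysosome regulators TFE3 and TFEB had 46.0 TPM ± 4.02 and 9.54 to 12.9 TPM, and their relative TFEC was lowest at 0.00333 TPM ± 0.00577. The sterol factors SREBF2 and SREBF1 lay at 43.0 to 46.0 TPM and 35.8 to 39.4 TPM.

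All 16 genes listed for the corepressor that MXD and MNT recruit were detected, against 66.5% of all genes. Their median was 24.02 TPM ± 0.418. The scaffolds of the corepressor, SIN3A and SIN3B, had 25.8, 25.3 and 23.9 TPM and 17.5, 15.9 and 16.0 TPM. The deacetylase genes HDAC1 and HDAC2 lay at 61.5 to 65.4 TPM and 73.0 to 87.7 TPM. SAP18 was highest at 124.8 TPM ± 3.18, and BRMS1 followed at 93.4 TPM ± 1.94. The median of this list was above the level of MGA, MNT and MXD3 in each library.

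All 10 listed partners of MGA in PRC1.6 were detected, against 66.5% of all genes. Their median was 30.6 TPM ± 1.05. CBX3, a heterochromatin protein gene, was highest at 362.9 TPM ± 12.2, followed by the ubiquitin ligase gene RING1 at 74.3 TPM ± 3.13. PCGF6, the subunit that defines the complex, was lowest at 14.2 TPM ± 1.21, with 15.1, 14.7 and 12.8 TPM, and E2F6, its other DNA-binding factor, had 22.8, 21.3 and 19.7 TPM. MGA was below PCGF6 in each library.

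MYC cofactors and regulators of MYC protein stability were detected in full, 17 of 17 and 19 of 19, against 66.5% of all genes. Cofactors had a median of 34.2 TPM ± 0.736, led by the ATPases RUVBL2 (230.1 TPM ± 10.8) and RUVBL1 (121.4 TPM ± 4.96). EP400, a remodeller of the complex that these ATPases join, was lowest at 2.58 TPM ± 0.484, and TRRAP, the large scaffold that binds MYC, had 8.61, 7.16 and 6.43 TPM. Stability genes had a median of 22.5 TPM ± 0.923. SET, an inhibitor of the phosphatase PP2A, was highest at 429.7 TPM ± 25.7. FBXW7, the ubiquitin ligase subunit that marks MYC for degradation, was lowest at 3.02 TPM ± 0.346, and AURKA, a kinase that shields MYCN from it, had 38.3, 34.6 and 35.7 TPM.

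Genes that MYC is known to activate were high as a group and those it is known to repress were lower. Of 28 activated targets 27 were detected, against 66.5% of all genes, and their list median was 131.6 TPM ± 6.53. NPM1, a nucleolar chaperone gene, had 4823 TPM ± 156 and PTMA 2503 TPM ± 62.0. The polyamine enzyme gene ODC1 had 248.4, 245.3 and 208.7 TPM, and CAD, of pyrimidine synthesis, had 23.7, 23.0 and 21.0 TPM. LDHA, lactate dehydrogenase, had 507.8, 697.1 and 805.4 TPM, lowest in replicate 1. TERT, the telomerase gene, was lowest at 0.0967 TPM ± 0.00577. All 14 repressed targets were detected, against the same 66.5%, with a median of 22.5 TPM ± 2.87. They ran from ITGB1 (192.7 TPM ± 19.7) and GADD45A (144.3 TPM ± 4.95) to GAS1 (5.64 TPM ± 0.524). The cell cycle inhibitor CDKN1A had 22.6, 22.3 and 28.2 TPM. Both list medians were above the 6.83 TPM of all genes, and levels in a single genotype do not show what MYC does to these genes.

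**Figure D4:**
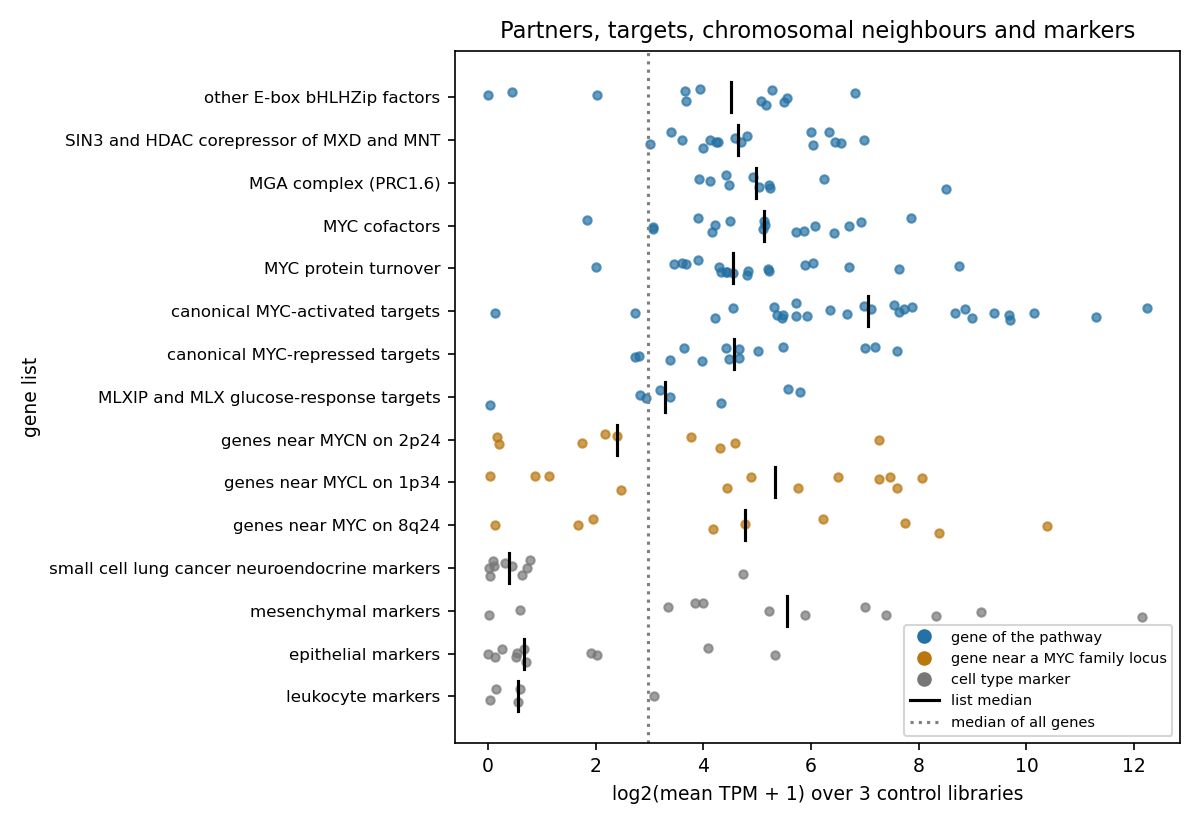
Mean level of each gene on the log2(TPM + 1) scale for lists of partners and targets (blue), genes near the MYC family loci (orange) and cell type markers (grey), with a bar at the list median and a dotted line at the median of all genes. Targets that MYC activates lie farthest right among the blue lists (median 131.6 TPM), and neuroendocrine markers lie near 0 except NCAM1 at 25.7 TPM.

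Genes with levels most like those of MYC and MAX were found by the summed absolute difference in log2(TPM + 1) over the 3 libraries. For MYC these were DAD1 (324.8, 335.7 and 333.8 TPM), BANF1 (323.1, 348.0 and 358.8 TPM) and NPC2 (331.4, 355.1 and 346.0 TPM), at summed differences of 0.09, 0.10 and 0.11. For MAX they were PSMC6 (120.3, 119.3 and 115.7 TPM), EIF2S3 (121.7, 123.2 and 117.0 TPM) and HSPA4 (118.6, 120.1 and 114.7 TPM), at 0.04, 0.04 and 0.06. With 3 libraries of a single group, this measure matches levels and little else.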

How the data were processed

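Poly(A) RNA of NCI-H69 was sequenced on a DNBSEQ-T7 instrument from libraries that keep the strand, per the labels' protocols. The tools HISAT2, StringTie and DESeq2, without roles, and the build GRCh38 come per the submitters' processing notes. The sources used here give neither annotation nor filters. The authors deposited TPM, FPKM and estimated counts per library, per the file headers. TPM have the same total in each library, that of FPKM is not stated, and 24.0% of the estimated counts, zeros included, are whole at the 2 decimals deposited. The libraries held 20941185, 22309228 and 22477571 estimated reads in control replicates 1, 2 and 3.

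Columns were given to samples by name. A further 12 columns of values, for 3 libraries under a prefix that matches no label, were used in no step, nor were the authors' normalized counts and averages. The planned edgeR fit of knockout against control was therefore not run. The labels call the replicates biological without saying how far back cultures were separate, so SDs describe the spread between these libraries. Members and gene lists were chosen with earlier results of these data known, and serve as description only.

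Named genes are the 10 members, MXI1, MLXIP and MLXIPL, the 2 highest and the lowest gene of each list, the nearest measured genes of the MYC family, and the 3 genes closest in level to MYC and to MAX. A pair of genes of this rule is not reported here, and both stay in the counts and medians of their lists. Other names were chosen after their values were seen. Positions and windows come from RefSeq (GRCh38.p14), matched by gene number for all 10 members, and overlaps from GENCODE 29. Intervals are exact Poisson at 95% and cover counting error only. Alternatives were FPKM, estimated reads, other minimums, other sums, rescaled TPM and leaving out each library. The functions for the log2 ratio of sums, the genes closest in level and the Poisson interval were tested on simulated data, and the others were not. Python 3.11.15, numpy 2.4.6, pandas 2.3.3, scipy 1.17.1 and matplotlib 3.10.9 were used.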

Additional observations from a re-analysis of the deposited data

How the results depend on the processing

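No paired analysis was possible because none of the column names given for knockout libraries was found, although both groups share replicate numbers in the labels. The planned edgeR fit was not run, and neither was a fit with a block or with DESeq2. The log2 ratio of activators to MAX-bound repressors, 2.18, was 1.78 with estimated reads in place of TPM, 1.66 with MXI1 added and 2.34 without MGA. It changed sign to -0.18 with the mean of log2(TPM + 1) over genes, which weights each gene equally, and to -4.73 without MYC. The log2 ratio of MAX to its partners, -1.79, was -2.90 with estimated reads, -1.90 with MXI1 added and 3.29 with the mean over genes, which sets MAX against an average partner and not against the sum. Without each library in turn the ratios ranged from 2.16 to 2.22 and from -1.83 to -1.77, and FPKM left both at 2.18 and -1.79. Detected members numbered 7 at a minimum of 5 TPM, 8 with FPKM and 9 with at least 10 estimated reads or without any library. Of 30 member means with a library left out, 1 moved by over 1.5 times, MYCN without replicate 2. Leaving out 95 ribosomal protein and MTRNR2L genes, which held 31.1% of TPM, raised every other gene by 0.54 on the log2 scale. Members at 10 TPM or more then numbered 7 in place of 5, against 49.97% of all genes.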

Other observations

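MLXIP was assigned 301.3, 253.4 and 265.9 estimated reads in control replicates 1, 2 and 3, against 3.09, 3.26 and 2.83 TPM. Replicate 2 thus had the fewest reads and the highest TPM. Estimated reads per TPM were 97.5, 77.7 and 94.0 for MLXIP, whereas MYC had 44.3, 48.1 and 49.2 and MAX 21.5, 23.6 and 24.2, each lowest in replicate 1.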
